A study of Mus musculus with 40 samples.

Results

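The transcripts of the mouse mitochondrial genome were followed in RNA from 40 cerebellum libraries. Members were the rows whose Ensembl gene ID, read without its version, belongs to a symbol that starts with mt- in the GENCODE M21 annotation of the GRCm38 build. They numbered 37 of the 54331 rows of the deposited table: 13 mRNAs, 2 ribosomal RNAs (rRNAs) and 22 transfer RNAs (tRNAs), all on chromosome M. The choice used no measured value.

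All animals were male mice of the strain labelled C57BL6, and the labels give no age, allele, litter or substrain. The genotypes are labelled WT, INDY, CSB and DKO. Each genotype was fed either the standard diet, SD, or the ketogenic diet, KD. INDY is another name of Slc13a5, a citrate transporter, CSB is the repair and transcription factor encoded by Ercc6, and the labels do not spell out DKO. The groups were WT SD with 4 libraries, WT KD with 4, INDY SD with 6, INDY KD with 6, CSB SD with 6, CSB KD with 5, DKO SD with 4 and DKO KD with 5. Total RNA was depleted of rRNA before the libraries were made. The labels do not say that the libraries came from separate animals, so p-values measure only the spread between libraries, which may be technical in part.

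The mitochondrial genome is a small circle that is copied into long RNAs from both of its strands by the RNA polymerase Polrmt with its factors Tfam and Tfb2m. The tRNAs that lie between the other genes are cut out of these precursors, which frees the mRNAs and rRNAs. The mRNAs encode core subunits of respiratory complexes I, III and IV and of ATP synthase, the machinery that makes most ATP in neurons, while the many other subunits come from nuclear genes. Pieces of mitochondrial DNA also lie in the nuclear chromosomes, and their annotated genes can take reads from the mitochondrial RNAs.

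Such copies decide how several rows of the table read, so the stretches where rows and copies meet are shown before the values. By sequence alignment, 11 annotated nuclear genes resembled a member, 9 of the 15 mRNAs and rRNAs had at least 1 of them, and 5 of the 11 were identical to the member over their aligned length. On the minus strand of chromosome 1, 7 copies lie end to end at chr1:24611535-24616197 (GRCm38). The other 4, on chromosomes 2 and 13, never rose above 51.3 in any library. All sequences below are reference sequences from GENCODE M21 on GRCm38, 5′ to 3′, and not the bases of these libraries.

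The copy of mt-Nd3 is Gm28438, an unprocessed pseudogene at chr1:24612775-24613119, which matches mt-Nd3 (chrM:9459-9806, plus strand) at 344 of 345 bases. The single difference is T3C, counted from 1 at the start of mt-Nd3, at position 9461 of chromosome M. It is in capitals in the starts of both genes, bases 1 to 60:
mt-Nd3: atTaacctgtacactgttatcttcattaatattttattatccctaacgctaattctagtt
Gm28438: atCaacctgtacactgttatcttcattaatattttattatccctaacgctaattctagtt
The copy of mt-Co1 (chrM:5328-6872) is Gm29216, at chr1:24615706-24616197, which matches at 482 of 483 bases with the difference A1066T at position 6393 of chromosome M. It is in capitals in bases 1063 to 1122 of mt-Co1 and 10 to 69 of the copy:
mt-Co1: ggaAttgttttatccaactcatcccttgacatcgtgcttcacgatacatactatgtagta
Gm29216: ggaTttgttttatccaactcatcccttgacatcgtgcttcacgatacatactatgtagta
The copy of mt-Co2 (chrM:7013-7696) is Gm28661, at chr1:24614885-24615565, which is identical over all 681 of its bases and ends 3 bases earlier. The capitals in the ends of both genes, from base 645, mark the bases past the end of the copy:
mt-Co2: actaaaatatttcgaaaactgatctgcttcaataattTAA
Gm28661: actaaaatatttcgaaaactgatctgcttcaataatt
A read that lies inside an identical stretch carries no base that tells the gene from its copy. Values of mt-Co2, mt-Co3, mt-Atp6, mt-Nd3 and mt-Co1 are therefore uncertain row by row, and values summed with the copies stand beside those of mt-Co2 and mt-Nd3 where these lead a comparison.

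Rows can also share bases within the mitochondrial genome. The genes mt-Atp8 and mt-Atp6 overlap by 43 bases and mt-Nd4l and mt-Nd4 by 7. The shared bases are in capitals in the last 60 bases of the upstream gene and the first 60 of the downstream gene:
mt-Atp8: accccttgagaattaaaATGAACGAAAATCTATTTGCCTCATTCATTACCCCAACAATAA
mt-Atp6: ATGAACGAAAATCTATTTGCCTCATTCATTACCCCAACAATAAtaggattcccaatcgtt
mt-Nd4l: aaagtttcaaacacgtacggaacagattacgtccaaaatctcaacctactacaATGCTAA
mt-Nd4: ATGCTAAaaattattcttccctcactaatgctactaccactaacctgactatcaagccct
Each pair leaves the precursor as 1 mRNA, so its rows measure parts of the same molecule. The gene mt-Nd6 (chrM:13552-14070) lies on the minus strand and meets the end of mt-Nd5 (chrM:11742-13565, plus strand). The labels do not give whether counting used the strand, and without it reads from the strands there cannot be told apart.

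Values are signals that the authors deposited, estimated read counts scaled between libraries, and they summed to between 23736702 and 32247186 per library. These sums are not sequencing depths, which are unknown. Slc13a5 ran from 82.1 to 161 in WT and CSB and from 0 to 0.934 in INDY and DKO. Ercc6 fell by 0.64 on the log2 scale from WT SD to DKO SD (limma, adjusted p = 0.0334) and to CSB SD (limma adjusted p = 0.0474). Against WT on KD its differences were smaller, -0.44 in CSB and -0.32 in DKO (limma adjusted p = 0.585 and 0.776). DKO KD 23 had an Ercc6 value of 876, the highest of CSB and DKO. The library labelled WT KD 25 had an Ercc6 value of 633, the lowest of WT, and a value of 1041 for Gm6768, a gene at 0 in the other WT libraries and at 929 to 1245 in CSB and DKO. Library DKO SD 1 stood apart by tissue markers: its mean log2 level of 12 cerebellar neuron genes was 7.52 against 10.45 to 12.76 in the other libraries, with 16.7 for Gabra6 of granule cells and 11.5 for Pcp2 of Purkinje cells. Its level of 18 forebrain genes was the highest of all at 10.10. The median difference of the 13 mRNAs is given without the library labelled WT KD 25 for comparisons with WT KD, and without DKO SD 1 for comparisons with DKO SD.

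Among the members, the large rRNA mt-Rnr2 (chrM:1094-2675) had the highest signal although rRNA had been depleted. Its mean over 40 libraries was 899866 per kilobase of gene, ahead of 291693 for mt-Co1, the catalytic subunit of complex IV, and 184452 for mt-Co3, another of its core subunits. The small rRNA mt-Rnr1 (chrM:70-1024) followed at 111724, mt-Atp6, the proton channel subunit of ATP synthase, at 108958 and its partner mt-Atp8 at 71603. The complex I subunits mt-Nd1 and mt-Nd3 stood at 60254 and 58956 and mt-Cytb, the catalytic subunit of complex III, at 51633. Below them came mt-Nd4 with 19939, mt-Nd2 with 17390, mt-Nd5 with 6271 and mt-Nd4l with 5932, all subunits of complex I. The lowest was mt-Nd6, the only mRNA of the other strand, with 1632.

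The place of mt-Co2 in this order depended on its copy. The row of mt-Co2 alone gave 6587 per kilobase, rank 12 of 15, and the sum with its copies 217926, rank 4, so 97% of the summed signal stood in the rows of the copies. The summed value of mt-Nd3 was 74656 per kilobase. Of the signal of the 13 mRNAs, 50.9% was mt-Co1, 16.3% mt-Co3 and 8.38% mt-Atp6 by the rows alone. With the copies summed the shares were 44.5% for mt-Co1, 17.1% for mt-Co3, 13% for mt-Co2 and 6.63% for mt-Atp6.

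**Figure D1:**
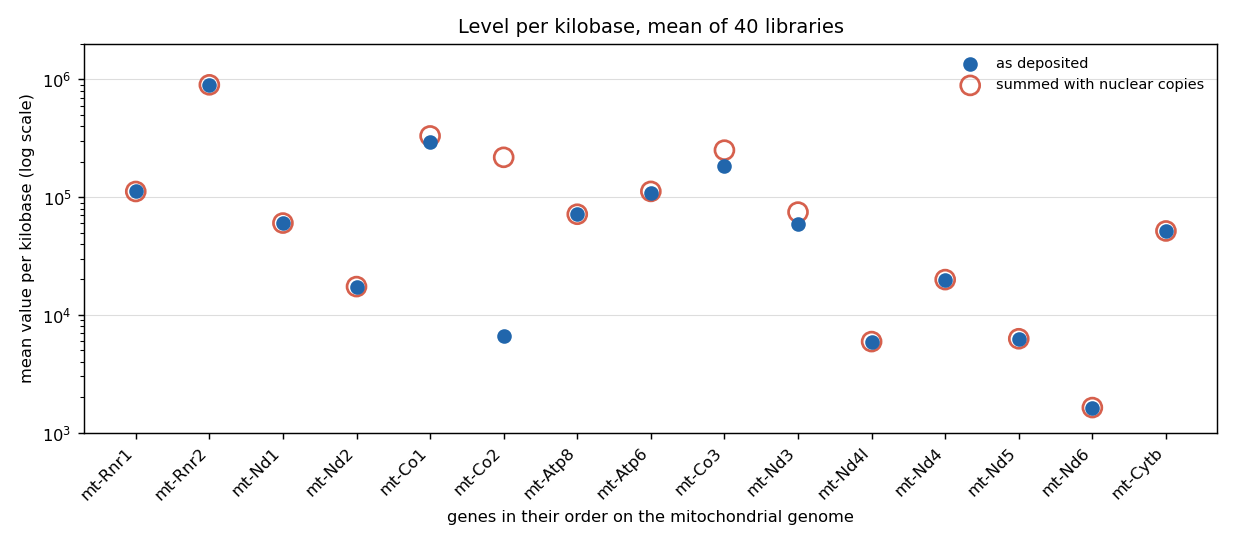
Mean normalised signal per kilobase of gene over 40 libraries for the 15 members above 0, on a log axis, alone and summed with nuclear copies. mt-Rnr2 was highest at 899866 and mt-Nd6 lowest at 1632, and summing moved mt-Co2 from 6587 to 217926.

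All 22 tRNAs, the adapters that carry amino acids to the mitochondrial ribosome, were listed at 0 in all 40 libraries. Among them are mt-Tf at the start of the genome map and mt-Tl1 just behind mt-Rnr2. The tests therefore covered 15 members, all of which passed the filter of 10 in at least 4 libraries in every one of the 40 libraries.

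The mRNAs differed in their spread within groups. The SD of log2 values within groups was 0.58 for mt-Co2, 0.38 for mt-Nd3 and between 0.16 and 0.34 for the other 11 mRNAs. With the copies summed these fell to 0.19 for mt-Co2 and 0.26 for mt-Nd3. Over all libraries the highest mt-Nd1 value was 2.26 times the lowest, that of mt-Co1 2.05 times, that of mt-Nd6 2.61 times and that of mt-Rnr1 11.3 times. For mt-Co2 the ratio of highest to lowest went from 6.99 for the row alone to 2.18 for the sum, and for mt-Nd3 from 5.42 to 2.71.

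The mean log2(signal + 1) of the 13 mRNAs was lowest in WT SD, at 14.00 ± 0.10 (SD, n = 4), with library values of 13.86, 14.09, 14.03 and 14.02. DKO SD was highest at 14.54 ± 0.12 (SD, n = 4), with 14.43, 14.72, 14.49 and 14.51. All 4 DKO SD values, the lowest being that of DKO SD 1, lay above all 4 of WT SD. The other SD groups lay between them, INDY SD at 14.36 ± 0.11 (SD, n = 6) and CSB SD at 14.32 ± 0.08 (SD, n = 6), and neither overlapped WT SD. These levels use the rows alone. With the copies summed, the level ran from 14.45 to 14.56 in WT SD and from 14.83 to 15.15 in DKO SD. INDY SD then had 14.68 to 14.95 and CSB SD 14.69 to 14.94.

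On KD the 4 genotypes overlapped. The mean log2 level was 14.45 ± 0.27 (SD, n = 4) in WT KD, with 14.12, 14.41, 14.77 and 14.50, and 14.40 ± 0.29 (SD, n = 5) in CSB KD, with 14.89, 14.31, 14.38, 14.20 and 14.22. It was 14.28 ± 0.19 (SD, n = 6) in INDY KD and 14.40 ± 0.14 (SD, n = 5) in DKO KD. The highest WT KD library was the library labelled WT KD 25, without which the mean was 14.34, and the highest CSB KD library was CSB KD 13, without which it was 14.27. In rising order by the rows alone, the groups were WT SD, INDY KD, CSB SD, INDY SD, CSB KD and DKO KD at the same level, WT KD and DKO SD. Apart from WT SD and INDY KD, neighbours in this order differed by less than the SD of either group.

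WT SD had the lowest group mean in 11 of the 13 mRNAs and in both rRNAs. DKO SD had the highest in 7 mRNAs and WT KD in 4, while DKO KD had the highest in both rRNAs. The exceptions to WT SD at the bottom were the row of mt-Co2, lowest in DKO KD, and mt-Nd6, lowest in INDY KD. With the copies summed WT SD was lowest in 12 of the 13, mt-Co2 included, at 118759 against 131374 in INDY KD and 157775 in DKO KD. The 4 WT SD libraries are numbered 39 to 42. CSB KD 43 and 44 had mean log2 levels of 14.20 and 14.22, against 14.31 to 14.89 in the other CSB KD libraries. INDY KD 45 and 46 had 14.09 and 14.21 against 14.05 to 14.46, and DKO KD 47 had 14.33 against 14.20 to 14.58. For mt-Nd4l, libraries 39 to 47 ran from 1029 to 1502 and the rest from 1466 to 2857. For mt-Nd5 they ran from 8391 to 14641 and the rest from 7842 to 18265. The labels name no batch, and the part of library number was not tested.

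For complex I, group means of mt-Nd1 lay between 45174 in WT SD and 64293 in WT KD, and INDY SD had 50771 at the lowest, 56858 at the median and 63049 at the highest. CSB SD had 50534 at the lowest, 58243 at the median and 58825 at the highest for mt-Nd1, and DKO KD had 64141, 54030, 62171, 70844 and 54545. Both lay wholly above the WT SD values. So did CSB KD, with 93096, 54564, 61567, 48955 and 52345. INDY KD reached down into WT SD with 42233 at the lowest, 51046 at the median and 65982 at the highest. Of the less abundant complex I mRNAs, mt-Nd4 ran from 19606 to 41000 over the 40 libraries, mt-Nd5 from 7842 to 18265 and mt-Nd4l from 1029 to 2857. For mt-Nd6 the range was 544 to 1421, with group means from 758 in INDY KD to 1053 in WT KD.

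In complex IV, mt-Co1 was 452386, 458921, 541276 and 472001 in WT KD, all above the highest WT SD value of 408502. INDY SD had 419699 at the lowest, 449033 at the median and 493483 at the highest and CSB SD 386167 at the lowest, 443642 at the median and 464478 at the highest, so CSB SD overlapped WT SD and INDY SD did not. INDY KD held the lowest mt-Co1 value of all libraries and ran from 311375 to 453668. CSB KD had 639099, 422256, 509636, 405273 and 410306 and DKO KD 512925, 427676, 416003, 508129 and 460877, and CSB KD 13 was the highest of all. The subunit mt-Co3 ran from 97005 to 209509 with the highest group mean, 172709 ± 29786, in DKO SD. The ATP synthase mRNAs ran from 52518 to 114260 for mt-Atp6 and from 8747 to 23744 for mt-Atp8, and CSB KD 13 was the highest library in both.

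As a share of the library sum, the members held 7.43 ± 1.07% (SD, n = 4) in WT SD, 8.77 ± 1.35% (n = 6) in INDY SD, 8.72 ± 0.781% (n = 6) in CSB SD and 9.63 ± 1.23% (n = 4) in DKO SD. On KD the shares were 9.08 ± 1.37% (n = 4) in WT, 8.11 ± 1.7% (n = 6) in INDY, 9.94 ± 2.42% (n = 5) in CSB and 10.5 ± 1.23% (n = 5) in DKO. The rRNA part varied more than the mRNA part: the rRNAs held 2.74% to 10.2% of a library and the 13 mRNAs 2.53% to 3.99%. The mRNA share was 3.03 ± 0.168% in WT SD and 3.59 ± 0.246% in DKO SD, and the rRNA share 4.4 ± 1.21% and 6.04 ± 1.04%. All these shares leave out the rows of the nuclear copies. With the copies added, the 13 mRNAs held 3.77% to 4.19% in WT SD and 4.35% to 4.9% in DKO SD. Without CSB KD 13 the CSB KD share was 8.89% ± 0.599, and without the library labelled WT KD 25 the WT KD share was 8.53% ± 0.983. In bulk tissue, more mitochondrial RNA per cell and more cells rich in it cannot be told apart.

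**Figure D2:**
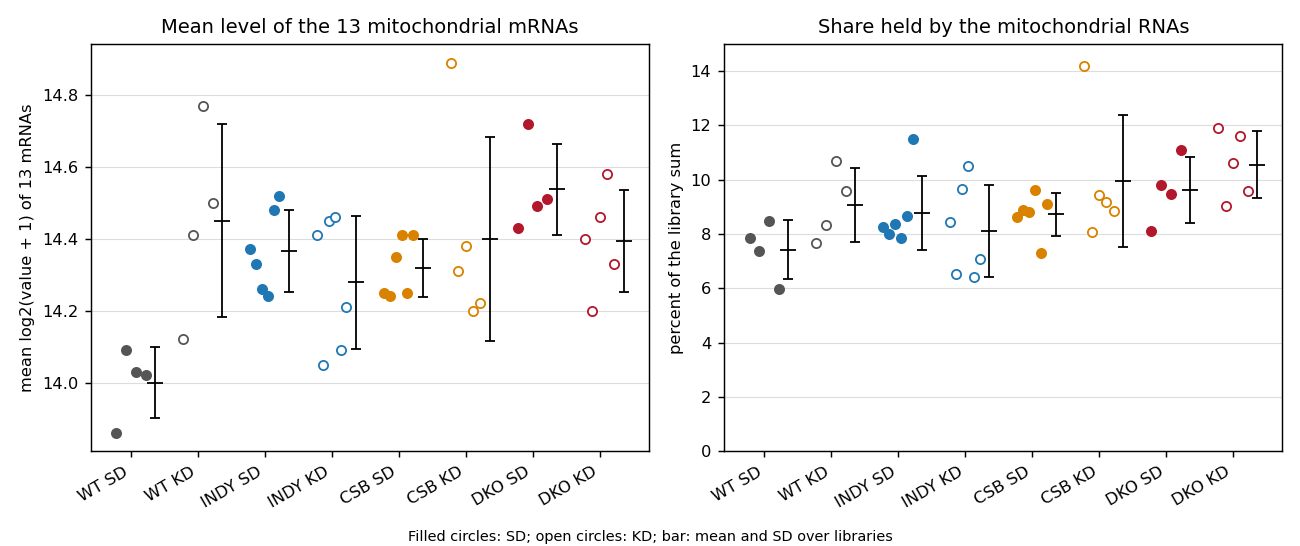
Mean log2(signal + 1) of the 13 mRNAs and the share of the library sum held by all members, in percent, per library (points) with group mean and SD. WT SD sits lowest at 14.00 and DKO SD highest at 14.54 in the mRNA level, and CSB KD 13 tops both panels.

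The comparison of DKO with WT on SD asked what the combined genotype changes without the diet, and it held the most member calls. A call is a Benjamini-Hochberg adjusted p under 0.05 from limma over the 21367 genes tested. All 13 mRNAs and both rRNAs were higher in DKO SD, and 4 of the 15 were called: mt-Nd3, mt-Cytb, mt-Nd1 and mt-Nd2, none lower. In the same comparison 5.92% of all genes were called, 3.1% as higher. The median difference of the 13 mRNAs was 0.46 on the log2 scale against 0.001 over all genes. An unadjusted p under 0.05 was met by 11 of 15 members and by 31.5% of all genes.

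The mRNA of mt-Cytb, with values of 47321, 46815, 45693 and 40202 in WT SD and 56228, 69053, 69157 and 61648 in DKO SD, rose 1.42-fold (log2 difference 0.51, SE 0.14, limma adjusted p = 0.0380). The groups did not overlap, and DKO SD 1 was the lowest of DKO SD. Of the other groups, INDY SD had 52317 at the lowest, 59876 at the median and 64493 at the highest, and CSB SD 53966 at the lowest, 60784 at the median and 65999 at the highest. Both lay wholly above WT SD as well.

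The mRNA of mt-Nd1, a membrane subunit of complex I near the site where ubiquinone binds, rose 1.40-fold (log2 difference 0.49, SE 0.15, limma adjusted p = 0.0473). Its values were 41241, 48160, 46085 and 45209 in WT SD and 53994, 72798, 61733 and 65504 in DKO SD, with no overlap. For mt-Nd2, a proton-pumping subunit of the same complex, WT SD had 11865, 14453, 14859 and 11606 and DKO SD had 15877, 25982, 22449 and 18234. It rose 1.55-fold (log2 difference 0.63, SE 0.19, limma adjusted p = 0.0473), and the lowest DKO SD library lay just above the highest of WT SD.

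The mRNA of mt-Nd3, whose product is a small complex I subunit with a loop that changes between the active and resting enzyme, had the largest difference. Its row held 8139, 13780, 11768 and 14123 in WT SD and 35263, 30137, 23567 and 44080 in DKO SD, 2.77-fold higher (log2 difference 1.47, SE 0.26, limma adjusted p = 0.00623). Summed with Gm28438 it was 19945 ± 2101 (SD, n = 4) and 33306 ± 8590 (SD, n = 4), 1.63-fold higher (log2 difference 0.71, SE 0.18, limma adjusted p = 0.0348). The sum was called as well, with a smaller difference than the row alone.

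Among the members that were not called, mt-Co1 had values of 395070, 406896, 358845 and 408502 in WT SD and 438051, 528804, 528733 and 524625 in DKO SD. Its log2 difference was 0.36 (SE 0.11, limma adjusted p = 0.051), and the groups did not overlap. For mt-Atp6 the values were 56122, 59210, 61262 and 61211 and 69932, 92539, 79376 and 87927, a log2 difference of 0.46 (SE 0.15, limma adjusted p = 0.056), again without overlap. The differences of mt-Atp8, mt-Co3, mt-Nd4l and mt-Nd4 were 0.54, 0.45, 0.61 and 0.40, with limma adjusted p of 0.0547, 0.0569, 0.0542 and 0.0938. The minus-strand mt-Nd6 ran from 702 to 933 in WT SD and from 731 to 1421 in DKO SD, which overlap, with a difference of 0.41 (limma adjusted p = 0.223). The others, mt-Nd5 and mt-Co2, differed by 0.29 and 0.34 with limma adjusted p of 0.292 and 0.569.

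The ranges of DKO SD and WT SD were apart, with DKO SD higher, for 10 of 13 mRNAs, all but mt-Co2, mt-Nd5 and mt-Nd6, and for neither rRNA. Over all genes tested, 19% had ranges apart and 9.28% with DKO SD higher. With the copies summed, mt-Co2 was 118759 ± 4838 in WT SD and 168047 ± 11295 in DKO SD and its ranges were apart too. That fit called 8 of 15 members, beside 5.94% of all genes: mt-Nd1, mt-Nd2, mt-Nd3, mt-Co1, mt-Co2, mt-Co3, mt-Atp6 and mt-Cytb, with log2 differences of 0.36 to 0.71. Of the copies themselves, the rows of Gm28661 and Gm29216 were 0.50 and 0.37 higher (limma adjusted p = 0.0387 and 0.0404). The 0.50 of summed mt-Co2 is no separate value, since 97% of that sum stood in the rows of its copies. The row of mt-Co1 had 0.36.

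**Figure D3:**
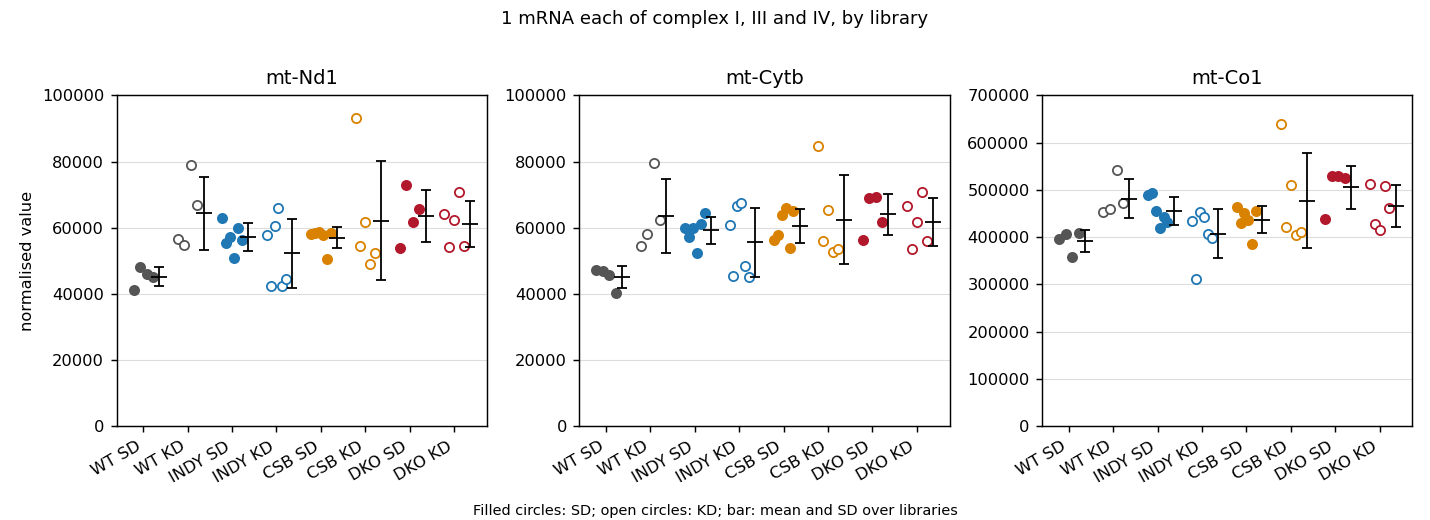
Normalised signal of mt-Nd1, mt-Cytb and mt-Co1 in each of the 40 libraries (points) with group mean and SD. In all 3, the 4 WT SD libraries lie below the 4 DKO SD libraries, and the highest point is CSB KD 13.

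How many members were called depended on single libraries, and so did the count over all genes, which ran from 12 to 2669. Leaving out WT SD 39, 40, 41 or 42, or DKO SD 1, 34 or 35, left only the row of mt-Nd3 called. The member count ran up to 9 without CSB KD 13, INDY KD 20 or INDY KD 22. These libraries are not in the compared groups and enter through the shared variance. The call of the mt-Nd3 row was met in all 40 such fits, with differences of 1.30 to 1.63. That of mt-Cytb was met in 33, of mt-Nd2 in 22 and of mt-Nd1 in 19. All 40 fits used the rows alone, so the sum of mt-Nd3 and Gm28438 was not refitted without each library. Without DKO SD 1 and 35 that sum was 0.88 higher (limma adjusted p = 0.0382). Without DKO SD 1, the difference of mt-Nd3 was 1.43 (limma adjusted p = 0.0199), those of mt-Cytb, mt-Nd1 and mt-Nd2 were 0.57, 0.56 and 0.75 (limma adjusted p = 0.0542, 0.0624 and 0.0607), and the median of the 13 mRNAs was 0.56. These 3 calls were thus lost without DKO SD 1 although their differences were larger. In that fit 101 genes of the whole table were called, against 1265 in all libraries.

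Cell type markers differed along with the members. All 12 cerebellar neuron genes were lower in DKO SD, with a median difference of -1.67, an unadjusted p under 0.05 in 12 of 12 and no call. Their mean log2 level was 11.83 to 12.76 in WT SD and 7.52 to 12.53 in DKO SD, none of the 12 being at 0 in either group. Of 18 forebrain genes 17 were higher, 1 of them called, with levels of 5.75 to 5.91 in WT SD and 5.67 to 10.10 in DKO SD. Up to 2 of them were at 0 in a library. Of 10 microglial genes 7 were called higher, at levels of 8.37 to 8.76 in WT SD and 9.28 to 9.61 in DKO SD with none at 0. Levels of 16 liver genes were 2.29 to 2.77 in WT SD, with 1 to 4 genes at 0, and 2.30 to 7.00 in DKO SD. Without DKO SD 1 the median difference was -0.63 for the cerebellar neuron genes, all 12 still lower, and 0.75 for the forebrain genes, with none of either list called and 5 of 10 microglial genes called. None of 8 oligodendrocyte, 8 astrocyte, 12 choroid plexus or 5 blood genes was called in all libraries. Without DKO SD 1 the median was -1.29 for the choroid plexus genes, all 12 lower, and 2.93 for the liver genes, 15 of 16 higher. It was 0.32 for the oligodendrocyte genes, all 8 higher, 0.36 for the blood genes, all 5 higher, and 0 for the astrocyte genes. No gene of these 5 lists was called in that fit. The part of these cell types in the mitochondrial differences was not tested. With the forebrain level as a covariate the median of the 13 mRNAs was 0.48 and only the row of mt-Nd3 was called among the members. In that fit 13 genes of the whole table were called against 1265 without the covariate. With forebrain, choroid plexus and liver levels as covariates the median was 0.36.

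The other genotypes showed differences of the same sign on SD that were not called. These comparisons share the 4 WT SD libraries, numbered 39 to 42, with each other and with the diet comparison in WT. Their values stand side by side and are not independent. In INDY against WT, 0 of 15 members were called (percent called over all genes 0.00468), 9 had an unadjusted p under 0.05 against 14.3% of genes, and the median of the 13 mRNAs was 0.34. The largest were the rows of mt-Co2 with 0.80 and mt-Nd3 with 0.63 and then mt-Nd4l with 0.56. Summed with their copies, mt-Co2 had 0.34 and mt-Nd3 0.31, which left mt-Nd4l in front, while mt-Cytb had 0.39 (SE 0.12) and mt-Nd1 0.34 (SE 0.14). Limma adjusted p ran from 0.319 to 0.818.

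In CSB against WT on SD, 0 of 15 were called (0.136% of all genes), 7 had an unadjusted p under 0.05 against 7.88% of genes, and the median was again 0.34. The leading members were mt-Nd4l with 0.59, mt-Nd2 with 0.44 and mt-Cytb with 0.42 (SE 0.12, limma adjusted p = 0.32). The ranges of 6 mRNAs lay wholly above WT SD in CSB SD, against 1.59% of all genes, and of 6 in INDY SD, against 2.74%. No member of either comparison had an adjusted p below 0.319, although these ranges did not overlap.

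Markers of other cells differed in these comparisons too. In CSB against WT on SD, 3 of 10 microglial genes were called higher and 8 had an unadjusted p under 0.05, as did 11 of 16 liver genes, none of them called. Microglial levels were 8.69 to 9.69 in CSB SD against 8.37 to 8.76 in WT SD, and liver levels 2.56 to 9.34 against 2.29 to 2.77. In INDY against WT on SD, 4 microglial and 9 liver genes had an unadjusted p under 0.05 with none called, at levels of 8.64 to 9.22 and 2.62 to 8.95 in INDY SD. Their part in the mitochondrial differences was not tested. With forebrain, choroid plexus and liver levels as covariates, the median of the 13 mRNAs was 0.20 in INDY and 0.25 in CSB.

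DKO SD was compared with the single genotypes as well. Against CSB on SD no member was called (0.00468% of all genes) and the median of the 13 mRNAs was 0.15. The largest difference was mt-Nd3 with 1.12 (SE 0.24, limma adjusted p = 0.177), or 0.46 summed with its copy. Against INDY on SD no member was called either (0.0608%), the median was 0.15 and mt-Nd3 had 0.84 (limma adjusted p = 0.331), or 0.40 summed. Without DKO SD 1 the medians were 0.21 against CSB and 0.22 against INDY.

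On KD no member was called in any genotype comparison. Against WT, percent called over all genes was 0.00936 in INDY, 0.00468 in CSB and 0.00936 in DKO, and the medians of the 13 mRNAs were -0.21, -0.03 and -0.05. Without the library labelled WT KD 25 they were -0.09, 0.08 and 0.07, so the sign in CSB and DKO changed without it, and without CSB KD 13 the median in CSB was -0.15. Members with an unadjusted p under 0.05 numbered 2 in INDY, where 6.59% of genes met it, 0 in CSB and 2 in DKO, where 6.39% did. In DKO these were the row of mt-Co2 with -0.79 (limma adjusted p = 0.776) and that of mt-Nd3 with 0.67 (limma adjusted p = 0.747), which became -0.05 and 0.18 with the copies summed.

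DKO against CSB on KD gave a median of 0.01, or 0.15 without CSB KD 13, with 0.0281% of all genes called. The row of mt-Co2 had -0.98 and that of mt-Nd3 0.83 (both with a limma adjusted p of 1), and the sums had 0.02 and 0.21. DKO against INDY on KD gave a median of 0.16 with 0.0983% of all genes called. There mt-Rnr1 had 0.88 (limma adjusted p = 0.471), the row of mt-Co2 -0.82 and that of mt-Nd3 0.70 (limma adjusted p = 0.529 and 0.393), and the sums had 0.28 for mt-Co2 and 0.39 for mt-Nd3. The sign of mt-Co2 against either genotype thus differed between the row and the sum. The mt-Rnr1 value was 374557 in DKO KD 2 and 89837 to 153842 in the other DKO KD libraries.

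The ketogenic diet raised no member past the threshold in any genotype. In WT, 0 of 15 were called by limma and 0% of all genes, while 10 members and 13.4% of genes had an unadjusted p under 0.05 and all 15 were higher on KD. The median of the 13 mRNAs was 0.49. The values of mt-Cytb in WT KD were 54484, 57967, 79581 and 62368, all above WT SD, a difference of 0.49 (SE 0.14, limma adjusted p = 0.262). For mt-Nd1 they were 56711, 54680, 79070 and 66712, also all above WT SD, a difference of 0.50 (SE 0.15, limma adjusted p = 0.262). The ranges of 8 of 13 mRNAs were apart with KD higher, against 5.13% of all genes.

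The library labelled WT KD 25 was the highest of WT KD in both mRNAs. Without it the median was 0.37 and the count of calls stayed at 0. Choroid plexus markers differed in the same comparison: all 12 were lower in WT KD, 8 with an unadjusted p under 0.05, with levels of 7.52 to 9.10 in WT SD and 4.61 to 8.03 in WT KD, where up to 2 were at 0. Forebrain levels were 5.75 to 5.91 and 5.60 to 7.80, and 7 of 10 microglial genes had an unadjusted p under 0.05, all higher. Their part in the difference was not tested.

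In the other genotypes the diet differences were small. The medians of the 13 mRNAs were -0.13 in INDY, 0.06 in CSB and -0.10 in DKO, with no member called and none with an unadjusted p under 0.05, beside 0%, 0% and 0.00468% of all genes called. Without CSB KD 13 the median in CSB was -0.08, and without DKO SD 1 that in DKO was -0.14. Averaged over genotypes it was 0.09 with 0 called and 0% of genes, 0.07 without DKO SD 1 and 0.05 without the library labelled WT KD 25. The difference of the diet response from WT was itself tested: its median was -0.59 in INDY, -0.36 in CSB and -0.55 in DKO, with 7, 4 and 10 of 15 members at an unadjusted p under 0.05 and 0 called by limma (percent called over all genes 0.014, 0 and 0). Over all genes that unadjusted limit was met by 14.3%, 6.41% and 18.7%. Without the library labelled WT KD 25 the 3 medians were -0.48, -0.26 and -0.44, and without DKO SD 1 that of DKO was -0.62. In DKO, mt-Cytb had -0.54 (SE 0.19, limma adjusted p = 0.150) and mt-Nd1 -0.55 (SE 0.20, limma adjusted p = 0.168). That the diet response differs between genotypes was therefore not shown.

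**Figure D4:**
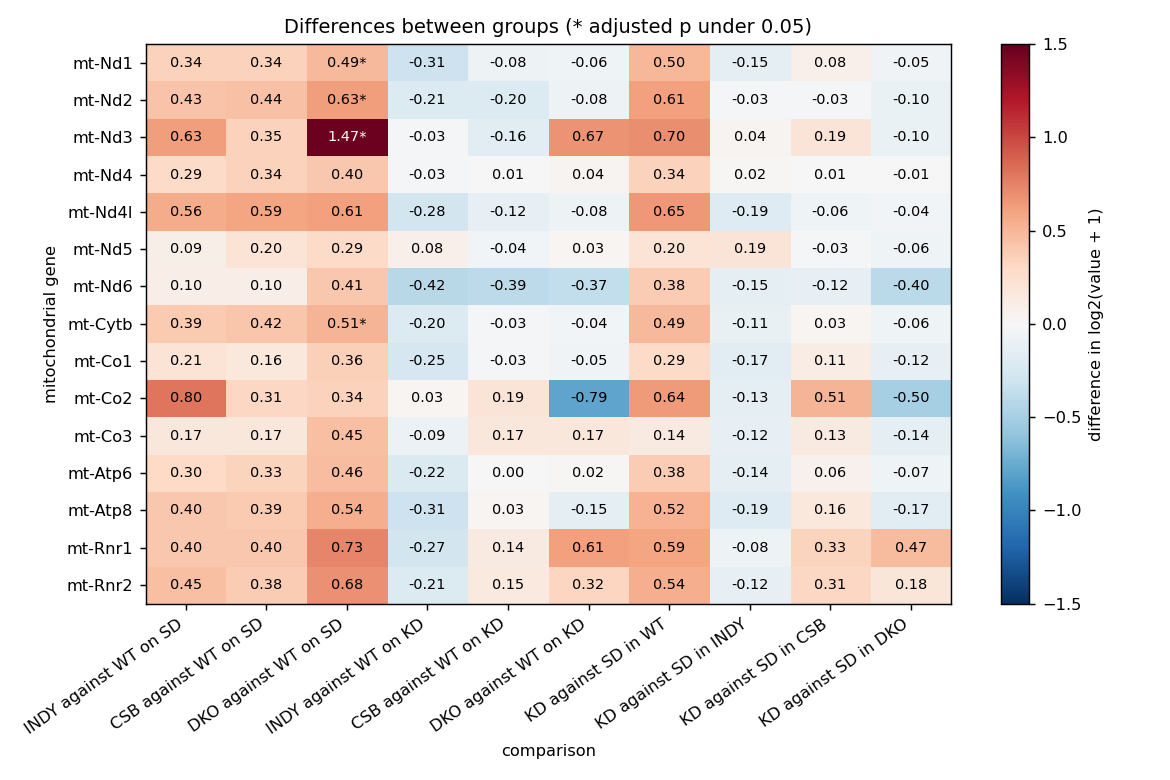
Log2 differences of the 15 members above 0 in 10 comparisons, as colours, with an asterisk where the limma adjusted p is under 0.05. The asterisks stand at mt-Nd3, mt-Cytb, mt-Nd1 and mt-Nd2 for DKO against WT on SD, and the 4 columns with WT SD as the reference hold only values above 0.

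The rows of mt-Nd3 and Gm28438 split differently between libraries. Gm28438 was 0 in 12 libraries, 59 to 179 in 3 and 5462 to 18385 in the other 25. In those 25 it held 25.8% to 54.1% of the sum of both rows, and in the 15 low libraries at most 0.754%. The limit of 200 between them was chosen after the values were seen. The value of mt-Nd3 was 8139 to 21514 where the copy was present and 19764 to 44080 where it was near 0.

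The low libraries were all 9 of DKO, 2 of 6 INDY SD (32 and 33), 3 of 6 INDY KD (15, 45 and 46) and 1 of 4 WT KD (28). None of the 4 WT SD and 11 CSB libraries was among them. In WT SD the copy held 9604, 5505, 8217 and 8643 and in DKO SD 0, 0, 179 and 0, a difference with a limma adjusted p of 0.0345. In WT KD, mt-Nd3 was 14424, 15172, 17939 and 33112 and Gm28438 7980, 7581, 12331 and 0 in the same library order. DKO KD had 31973, 29412, 28507, 34859 and 26821 for mt-Nd3 and 0 for Gm28438 throughout.

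In INDY SD, mt-Nd3 was 14620, 17299, 12530, 14351, 25972 and 30101 and Gm28438 10070, 6236, 9659, 7429, 59 and 151. In INDY KD the values were 22953, 10792, 16526, 18431, 19764 and 28078 and 0, 5462, 7786, 10808, 0 and 0. Within each INDY group the libraries with the copy near 0 were those with the highest mt-Nd3 values, whereas their sums were 26031 and 30252 against 21780 to 24690 for the others in INDY SD and 19764 to 28078 against 16254 to 29239 in INDY KD. CSB SD had 12577 at the lowest, 14485 at the median and 18556 at the highest for mt-Nd3 and 7321 to 9383 for the copy. CSB KD had 21514, 16717, 17598, 14266 and 15796 for mt-Nd3 and 18385, 7484, 10830, 6206 and 5489 for the copy.

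Over the aligned bases the rows differ in sequence only at the T3C position, shown in capitals above, and mt-Nd3 also runs past the end of the copy, whose alignment covers 345 of its 348 bases. The files hold no reads, so the base each library carries at that position was not examined. The sum of both rows had group means of 19945 ± 2101 in WT SD, 27135 ± 5389 in WT KD, 24746 ± 3123 in INDY SD, 23433 ± 4925 in INDY KD, 23790 ± 2743 in CSB SD and 26857 ± 7928 in CSB KD. In DKO it was 33306 ± 8590 on SD and 30315 ± 3150 on KD, the highest of the groups. Relative to the mean log2 of the rows of the other 12 mRNAs, the sum was 0.49 ± 0.45 in DKO SD and 0.53 ± 0.14 in DKO KD. It was between 0.17 and 0.24 in the other groups. These offsets set a sum against rows without their copies, so their size depends on both. The row of mt-Co2, 1 of the 12, had a difference of -0.79 for DKO against WT on KD, and its sum -0.05.

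**Figure D5:**
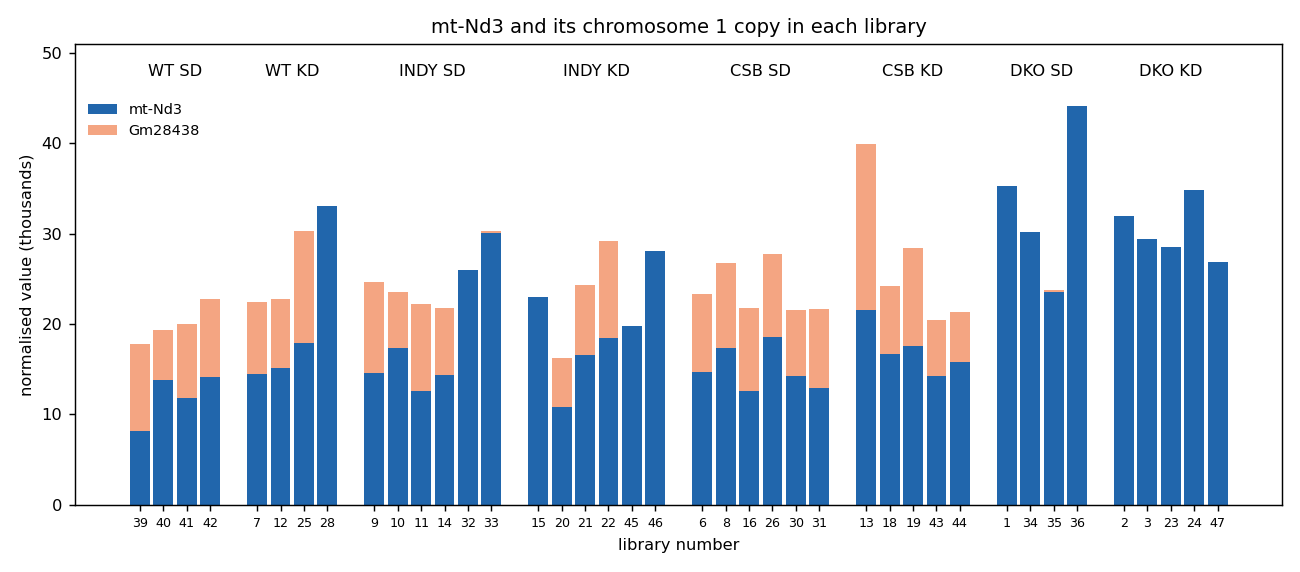
Normalised signal of mt-Nd3 and its copy Gm28438, stacked, in each library by group. Gm28438 is missing or below 200 in all 9 DKO libraries, 5 INDY libraries and WT KD 28, and holds 25.8% to 54.1% of the stack elsewhere.

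Averaged over diets, INDY and DKO were compared with WT and CSB, which asks what goes with the INDY genotype. The comparison called 1 of 15 members, mt-Nd3, 1.56-fold higher (log2 difference 0.64, SE 0.12, limma adjusted p = 0.0312), beside 0.014% of all genes, which are Slc13a5, Gm28438 and mt-Nd3 itself. The median of the 13 mRNAs was 0.07, 0.08 without DKO SD 1 and 0.10 without the library labelled WT KD 25. Summed with Gm28438, mt-Nd3 was 0.19 higher (SE 0.082) and not called (limma adjusted p = 0.511). Leaving out single libraries ended the call of the row in 20 of 40 fits.

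CSB and DKO against WT and INDY, averaged over diets, called 0 of 15 members beside 0.796% of all genes, with 9 members and 18.8% of genes at an unadjusted p under 0.05. The nearest were mt-Nd3 with 0.43 (SE 0.12, limma adjusted p = 0.0707), or 0.25 summed with its copy (limma adjusted p = 0.104), and mt-Co3 with 0.22 (SE 0.068, limma adjusted p = 0.0981). The rRNAs had 0.44 for mt-Rnr1 and 0.33 for mt-Rnr2 (limma adjusted p = 0.145 and 0.129). The mRNA median was 0.16, or 0.18 without DKO SD 1 and 0.19 without the library labelled WT KD 25. In the same comparison 5 of 10 microglial genes were called higher, 8 had an unadjusted p under 0.05, and 1 of 8 astrocyte genes was called higher. The part of these cells was not tested.

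The rRNAs form the core of the mitochondrial ribosome and lie at the front of the precursor. In WT SD, mt-Rnr2 was 1179465, 991554, 1235905 and 617541 and in DKO SD 1232039, 1539130, 1599190 and 1946320, a difference of 0.68 (SE 0.26, limma adjusted p = 0.0765). For mt-Rnr1 the values were 94716, 79877, 79906 and 33045 and 75636, 116541, 141078 and 122051, a difference of 0.73 (SE 0.37, limma adjusted p = 0.165). The ranges of both rRNAs overlapped: DKO SD 1 lay within the range of WT SD, and WT SD 42 was the lowest of all libraries.

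In DKO KD the values of mt-Rnr2 were 2127388, 1452099, 1770913, 1825069 and 1726071 and those of mt-Rnr1 374557, 89837, 153842, 126732 and 131293. The ratio of mt-Rnr2 to mt-Rnr1 was 14.3 ± 2.33 over 40 libraries and ran from 5.68 in DKO KD 2 to 18.7, so the ratio was not fixed. DKO KD 2 had the highest mt-Rnr1 of all libraries with 374557, and CSB KD 13 the highest mt-Rnr2 with 3039736. The group mean of the ratio was 12.2 ± 4.01 in DKO KD and between 14.1 and 15.1 in the other groups. The DKO KD libraries other than DKO KD 2 ran from 11.5 to 16.2. How far each library was depleted of rRNA is not given in the sources used here.

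The nuclear genes that run mitochondrial transcription showed no matching calls. For DKO against WT on SD, where 5.92% of all genes were called, 0 of 10 transcription genes were called, with a median of 0.02 and a range of -0.41 to 0.28. Polrmt was 439 ± 65.9 (SD, n = 4) in WT SD and 445 ± 49.5 (SD, n = 4) in DKO SD. Tfam, which packs the mitochondrial genome and opens its promoters, was 995 ± 108 (SD, n = 4) and 1049 ± 237 (SD, n = 4). Among genes of RNA processing and decay 0 of 22 were called (median 0.10), and among genes of DNA replication and maintenance 0 of 10 (median 0.06).

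Of 8 regulators of mitochondrial biogenesis, 1 was called and lower, Ppargc1b, a coactivator of nuclear genes for mitochondria. It was 505, 441, 521 and 370 in WT SD and 255, 221, 239 and 337 in DKO SD, a fall of 1.75-fold (log2 difference -0.81, SE 0.25, limma adjusted p = 0.0493). The call was met in 13 of 40 fits that left out 1 library, with limma adjusted p from 0.0209 to 0.113, and was lost without DKO SD 1. It was met in 6 of 12 fits with other settings, where the difference was at its smallest -0.42 and the limma adjusted p at its highest 0.589. All 8 regulators had differences below 0, with a median of -0.17. No gene of these 4 lists was called in any of the other 19 comparisons.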

How the data were processed

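Per the labels, trizol-chloroform extraction gave total RNA of the cerebellum, which went through rRNA depletion and DNBseq sequencing. The deposited values are a signal, an estimated read count per gene that the authors scaled between libraries. Bowtie2, Salmon, DESeq2 and the build mm9 are named, without versions, per the submitters' processing notes. The values are not whole numbers (0.245% of those above 0 lie within 0.001 of one), and the median-ratio factor was 1.00381 in every library. Of 54331 IDs, 54097 matched GENCODE M21 (GRCm38) without version, so positions belong to the annotation and not to the authors' alignment.

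The 21367 genes that reached 10 in 4 or more libraries were analysed as log2(value + 1) in 1 fit of 8 group means, with no covariate, in limma 3.58.1 (R 4.3.3, data.table at version 1.17.8), with an intensity trend and robust variances. A fold is on the log2(value + 1) scale. A call is an adjusted p under 0.05 (two-sided test, Benjamini-Hochberg over the genes of each of 20 comparisons). Simulated data with seeded changes were used to test the fit. Nuclear copies were sought with blastn 2.17.0 (identity of at least 95%, 90% of the copy, 100 bases). All tables and plots were made with Python 3.11.15, pandas 2.3.3, numpy 2.4.6 and matplotlib 3.10.9.

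Named by rule were mt-Co1, mt-Nd1, mt-Cytb, mt-Atp6, mt-Nd6, mt-Nd3 with Gm28438, both rRNAs, every called member, Slc13a5, Ercc6, the copies and called genes of the other lists, and the other members by range and counts. The rule's 3 tRNAs of highest mean could not be chosen because all 22 are at 0. Further genes were named after their values were seen. The members, lists and comparisons were chosen with earlier results of these data known. Results were recomputed under 12 other settings and in 40 fits that left out 1 library each, and 2 further settings without DKO SD 1 and 35 were chosen after seeing the data.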

Additional observations from a re-analysis of the deposited data

Results flagged for a closer look

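Single libraries far from the rest of their group were sought in 144 sets of values, 18 quantities in 8 groups, by the gap to the nearest library as a share of the group's range. Chance alone marks about 1 in 20 such sets, and 19 were marked. The sets share libraries, and some quantities are means or sums of others, so this count cannot show an excess over chance.

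In CSB KD, library CSB KD 13 was marked as standing above the other 4 in 8 quantities. It had 93096 for mt-Nd1 against 48955 to 61567, 27118 for mt-Nd2 against 13195 to 16663, and 41000 for mt-Nd4 against 23798 to 27495. Its mt-Atp8 was 23744 against 14040 to 15494, its mt-Rnr1 248541 against 59384 to 112361 and its mt-Rnr2 3039736 against 1051511 to 1468202. Its mean log2 level of the 13 mRNAs was 14.89 against 14.20 to 14.38, and its share of the library sum held by mitochondrial genes 14.2% against 8.07% to 9.44%. It was also the highest of CSB KD in quantities that were not marked, such as mt-Co1 with 639099 and mt-Cytb with 84829.

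The rRNAs gave 3 more such values. In INDY KD 22, mt-Rnr1 was 158500 against 59281 to 88113, and in DKO KD 2 it was 374557 against 89837 to 153842. In INDY SD 33, mt-Rnr2 was 1875792 against 1140941 to 1412389, and the mitochondrial share of that library was 11.5% against 7.85% to 8.68%.

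Among complex I mRNAs, mt-Nd1 was 50534 in CSB SD 30 against 57910 to 58825. For mt-Nd5 the values were 17203 in the library labelled WT KD 25 against 9456 to 10363, and 14641 in INDY KD 45 against 10863 to 11912. In WT SD 39, mt-Nd6 was 933 against 702 to 729. Of the others, mt-Co1 was 438051 in DKO SD 1 against 524625 to 528804, mt-Co3 was 181666 in CSB SD 26 against 127143 to 141597, and mt-Atp8 was 19356 in DKO KD 24 against 12622 to 13864.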

How the results depend on the processing

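For DKO against WT on SD, 4 members were called, beside 1265 of 21367 genes. The count was 1 with no filter, where 69 of 38635 genes were called. Scaled to the library sum it was 1, where 3057 of 21431 genes were called. It was 2 when scaled to the sum without mitochondrial genes and small abundant RNAs. With copies summed it was 8, beside 5.94% of all genes. It was 1 with the forebrain level as a covariate, 1 with forebrain, choroid plexus and liver levels, 2 with neither trend nor robust variances, 1 without DKO SD 1 and 35, and 1 when copies were also summed without them. Scaled to the library sum, the median of all genes shifted to -0.19 and that of the 13 mRNAs to 0.27, which is 0.46 above all genes. In the fit of only the groups compared, DKO against CSB on KD called 1 (the row of mt-Nd3). For CSB and DKO against WT and INDY, 0 became 1 with 3 covariates, 2 without DKO SD 1 and 35, and 1 with copies also summed. For INDY and DKO against WT and CSB, 1 became 0 with no filter, with either scaling to sums, with copies summed and with copies summed without DKO SD 1 and 35. With 3 covariates the median was 0.27 for KD against SD in WT, and for the diet response minus WT it was -0.36 in INDY and -0.3 in DKO, where it was -0.36 when scaled to the library sum. With a denominator without small abundant RNAs the mitochondrial share was 11% in WT KD, 10.2% in INDY SD, 9.99% in CSB SD, 11.5% in DKO SD and 12.3% in DKO KD.

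Leaving out single libraries gave 1 to 9 calls for DKO against WT on SD, where 12 to 2669 of all genes were called. It gave 0 to 3 for CSB and DKO against WT and INDY, and 0 to 1 for INDY and DKO against WT and CSB. No called member changed direction in these fits. Medians near 0 did: with 3 covariates CSB against WT on KD went from -0.03 to 0.01 and DKO against WT on KD from -0.05 to 0.05, and scaled to the library sum KD against SD in CSB went from 0.06 to -0.02 and DKO against CSB on KD from 0.01 to -0.01. Leaving out single libraries moved these 4 medians between -0.15 and 0.08, -0.10 and 0.07, -0.08 and 0.12, and -0.04 and 0.15. The cause of these changes was not tested. Depth is unknown, and no counting error is given. No paired analysis was possible because the library numbers in the labels are unique and pair no samples.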

Other observations

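The mRNA of the minus strand, mt-Nd6, was set against the other 12 mRNAs of the same library, by their rows without copies. Its log2 value lay below their mean by the most in CSB KD, at -5.23 ± 0.47 (SD, n = 5), and DKO KD, at -5.20 ± 0.46 (n = 5), and by the least in WT SD, at -4.78 ± 0.31 (n = 4). The group means differed by about the SD within groups, and the single libraries ran from -5.86 in WT KD 28 to -4.06 in WT KD 7, both of the same group.

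The identical copy of mt-Co3, Gm28437, held 20228 to 81235 over the 40 libraries, and the copy of mt-Atp6, Gm10925, 0 to 7194. The copies of mt-Nd4 and mt-Nd4l, Gm28439 and Gm10222, are identical to their genes over their full length and were 0 in every library. Copies together held 0.995% ± 0.122 of a library sum.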
